A study of Mus musculus with 21 samples.

Results

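The 2 mature arms of the microRNA miR-21, miR-21-5p and miR-21-3p, were followed through kidney injury by folic acid. They were taken by name as 2 of the 1125 rows of a small RNA sequencing table. Kidneys of BALB/c males, 12 weeks old, were sampled at day 0, during the first week (days 1, 2, 3 and 7), and at days 14 and 28 after folic acid at 250 mg/kg in 0.3 M sodium bicarbonate. There are 3 libraries per day and 21 in all. All groups share strain, sex and age label, and whether mice of day 0 got an injection is not stated. No group without folic acid was collected at a later day, so folic acid, injection, vehicle and time since injection cannot be told apart here. Nor is it stated that libraries of 1 day are separate mice; the p-values then reflect only how far these libraries scatter, which may be technical.

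A microRNA gene is transcribed as a longer RNA, cut to a hairpin and then to a short duplex of both arms. One arm, the guide, is usually loaded into an Argonaute protein, where bases 2 to 8 (the seed) pair with target transcripts, while the other, the passenger, is usually degraded. For miR-21 the guide is the 5p arm. Its known targets include transcripts of the translation inhibitor Pdcd4 and the lipid metabolism regulator Ppara. In kidney it is known to be high in injured tubules and in fibrosis, and mice without it are known to form less scar in models of kidney fibrosis. Its gene is known to be activated by STAT3, AP-1 and TGF-beta signalling.

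Both mature sequences are shown because they differ in seed, so a change of each arm concerns a different set of possible targets. They are RefSeq sequences of GRCm38.p6, where the gene is called Mir21a, written 5′ to 3′ with the seed in capitals.
miR-21-5p: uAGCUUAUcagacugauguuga
miR-21-3p: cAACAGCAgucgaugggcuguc
miR-21c, a separate RefSeq entry on chromosome 8 with the same seed, is shown since it starts with the same 15 bases as miR-21-5p. It has no row of its own in the sequencing table and so was not analysed here.
miR-21c: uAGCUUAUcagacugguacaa
The hairpin of 92 bases lies on the minus strand at chr11:86584067-86584158 (GRCm38), and the 5p arm lies at chr11:86584120-86584141 and the 3p arm at chr11:86584082-86584103. In the GENCODE annotation of that build the hairpin falls inside the untranslated part of exon 12, the last exon, of the autophagy gene Vmp1. The arms are 22 bases long each and stand 16 bases apart, and in the predicted fold of the hairpin (RNAfold) 19 bases of the 5p arm pair with the 3p arm. The 21 libraries were deposited as CPM (reads of a miRNA scaled to one fixed total of miRNA reads per library) under mm9, another build, and no coordinate here comes from them.

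Reads assigned to miRNAs numbered 2875675 in the shallowest library and 7110546 in the deepest. The kidney label was checked with marker miRNAs: 5 tubule miRNAs summed to between 108155 and 195891 CPM in every library, and the liver, heart and brain miRNAs miR-122-5p, miR-208a-3p and miR-124-3p summed to at most 1.41 CPM. Day 14 replicate 3 stood apart from the other day 14 libraries in both arms, and the tests that involve day 14 and change with it are given without it as well. No batch is named in the labels.

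miR-21-5p rose about 4-fold within 1 day, was 5-fold above day 0 from day 2 to day 7, and was still higher on day 28. The levels, as CPM after TMM scaling (a correction for library composition), were 15615.5, 15742 and 12862 on day 0. They were 59789.6, 55689.5 and 62756 CPM on day 1, and 81921, 82235 and 67649 CPM on day 2. All 3 libraries of day 1 lay above the highest day 0 library, and so did all libraries of every later day. On day 3 the levels were 77780.1, 80956 and 66720 CPM, on day 7 they were 87516, 74802 and 66704 CPM. The libraries of days 2, 3 and 7 overlapped one another. On day 14 they were 41075, 34173 and 58201 CPM, and on day 28 they were 21226, 20865 and 25999 CPM. Day 14 was the widest day, with replicate 3 far above the others, and the day 28 libraries lay below all of day 14.

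The day means of miR-21-5p were 59412 ± 3548 CPM on day 1 and 77268 ± 8332 CPM on day 2, against 14739.8 ± 1627 CPM on day 0 (SD, n = 3 each). The change from day 0 was tested with limma on log2(CPM + 1), two-sided, in 1 fit over all 21 libraries and all 431 miRNAs with enough reads, with Benjamini-Hochberg adjustment over the 431. On this scale miR-21-5p rose by 2.02 on day 1 (SE 0.15, adjusted p = 4.42e-09), when 25.3% of the 431 miRNAs were called in either direction at an adjusted p under 0.05. It was higher by 2.39 on day 2, 2.35 on day 3 and 2.37 on day 7, with adjusted p of 1.83e-10, 5.00e-10 and 4.31e-10. The share of all miRNAs called on those days was 43.4%, 49.4% and 52.4%. On day 14 it was higher by 1.56 (adjusted p = 1.07e-07, 42.9% of all miRNAs called), and by 1.33 without day 14 replicate 3. On day 28 it was higher by 0.62 (SE 0.15, 95% interval 0.30 to 0.94, adjusted p = 0.00778, 13% of all miRNAs called), with all 3 libraries above the highest of day 0. It no longer passed when day 0 replicate 3 was left out (0.49, adjusted p = 0.0790), without day 28 replicate 3 (0.54, adjusted p = 0.0639) and with no filter on low values (0.61, adjusted p = 0.0501).

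**Figure D1:**
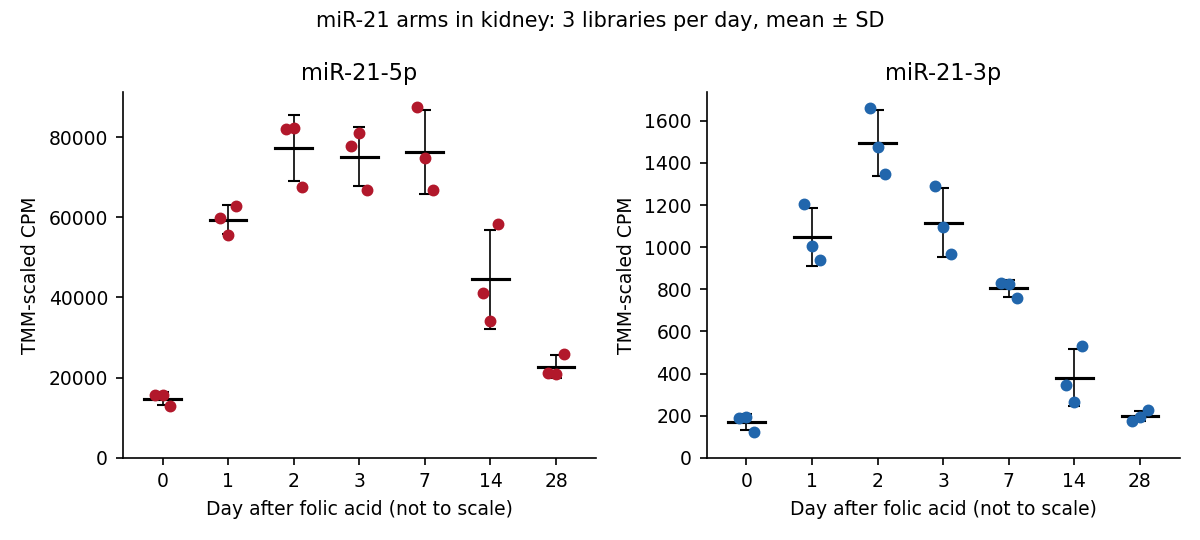
TMM-scaled CPM of miR-21-5p (left) and miR-21-3p (right) in each library by day after folic acid, with points for the 3 libraries of a day, a thick line for the mean and error bars for the SD. miR-21-5p holds a plateau on days 2, 3 and 7 with means of 77268, 75152 and 76341 CPM, while miR-21-3p is highest on day 2 at 1494 CPM and already down to 805 CPM on day 7.

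miR-21-3p, the passenger arm, rose more steeply, had its highest mean on day 2 and came down earlier. It stood at 188, 196 and 124 CPM on day 0, at 1203, 1006 and 937 CPM on day 1, and at 1660, 1474 and 1348 CPM on day 2. Every day 2 library was above every day 1 library, though limma did not call this step (0.51 on the log2 scale, adjusted p = 0.160). The levels were 1291, 1095 and 966 CPM on day 3, and 830, 826 and 758 CPM on day 7. All day 7 libraries lay below all libraries of days 1, 2 and 3. On day 14 they were 343, 267 and 529 CPM, with replicate 3 again the highest, and on day 28 they were 177, 196 and 225 CPM. The day 28 libraries overlapped those of day 0.

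Against day 0 the change of miR-21-3p on the log2(CPM + 1) scale was 2.64 on day 1 (SE 0.20, adjusted p = 4.42e-09 in limma) and 3.16 on day 2 (adjusted p = 1.83e-10). On those 2 days it was the largest rise of all 431 miRNAs, with miR-21-5p in place 4 on day 1 and place 3 on day 2. It was higher by 2.73 on day 3, 2.27 on day 7 and 1.13 on day 14 (adjusted p = 1.41e-09, 9.33e-09 and 0.00011). Without day 14 replicate 3 the change on day 14 was 0.85 (adjusted p = 0.00160). On day 28 the difference was 0.26 with a 95% interval from -0.15 to 0.66 and did not pass (adjusted p = 0.445), so a rise of up to 0.66 was not resolved. Without 1 library this difference ran from 0.015, when day 0 replicate 3 was left out, to 0.37, when day 0 replicate 2 was left out (adjusted p from 0.297 to 0.983). In places, miR-21-5p had the ninth largest rise on day 7 and the 47th on day 28, and miR-21-3p places 14 and 115.

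The order of the days, and which neighbours in it differed, was read from the same fit over all 21 pairs of days. For miR-21-5p the order from high to low was day 2, day 7, day 3, day 1, day 14, day 28 and day 0. Days 7 and 2 differed by -0.02 (95% interval -0.34 to 0.30), and days 7 and 3 by 0.02 (-0.30 to 0.34), with adjusted p of 0.945 and 0.956 and 18.6% and 1.86% of all miRNAs called. Day 3 against day 1 did not pass either (0.34, adjusted p = 0.137, 17.2% called), though it passed with totals that leave out both arms (0.47, adjusted p = 0.0446) and in a fit of those 2 days alone (0.33, adjusted p = 0.0460). Below that every neighbouring pair passed: day 14 was lower than day 1 by 0.45 (adjusted p = 0.0339), day 28 was lower than day 14 by 0.94 (adjusted p = 0.00114), and day 28 was above day 0 as given. The call of day 14 against day 1, a contrast in which 29.5% of all miRNAs passed, was lost without 5 of the 6 libraries compared (adjusted p from 0.0562 to 0.191), with no filter (adjusted p = 0.0701), in a fit of those 2 days alone (adjusted p = 0.150) and in edgeR (adjusted p = 0.0521). Without day 14 replicate 3, the sixth library, it was -0.67 (adjusted p = 0.00218). For miR-21-3p the order was day 2, day 3, day 1, day 7, day 14, day 28 and day 0. The neighbours from day 2 down to day 7 did not pass (day 3 against day 2 with 5.34% of all miRNAs called, day 3 against day 1, and day 7 against day 1 with 34.8% called, adjusted p from 0.143 to 0.816). Of these, day 7 against day 1 passed with upper-quartile scaling (-0.58, adjusted p = 0.0224) and in a fit of those 2 days alone (-0.39, adjusted p = 0.0485). Day 7 against day 2 did pass (-0.89, SE 0.20, adjusted p = 0.00290). Day 2 against day 1 passed for neither arm, with 2.78% of all miRNAs called. It was 0.37 for miR-21-5p (adjusted p = 0.198) and 0.51 for miR-21-3p (adjusted p = 0.160), so day 2 is not resolved as the peak.

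**Figure D2:**
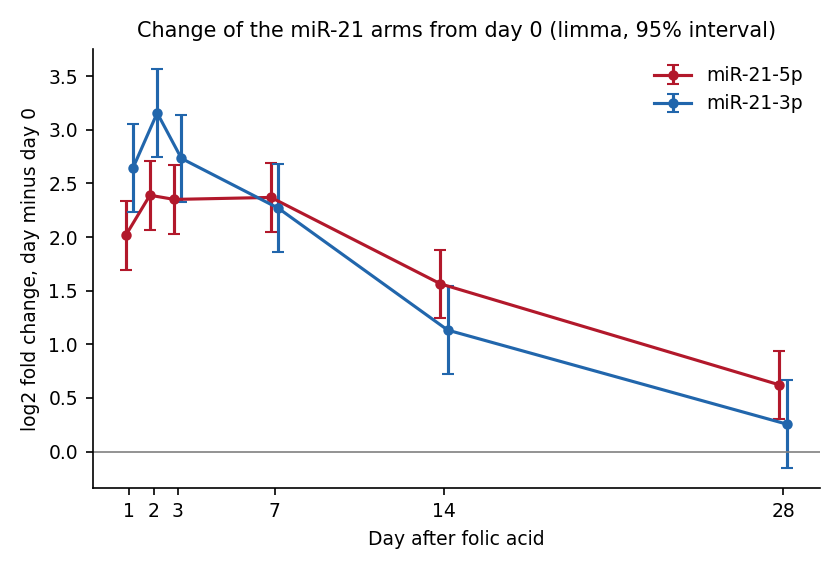
Change of miR-21-5p (red) and miR-21-3p (blue) from day 0 on the log2(CPM + 1) scale against the day after folic acid, with limma's 95% intervals. The 3p arm starts above the 5p arm, at 3.16 against 2.39 on day 2, and ends below it, at 0.26 against 0.62 on day 28.

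Because both arms come from 1 hairpin, their ratio follows the arms within each library and needs no scaling between libraries apart from the added 1 CPM. The number of miR-21-3p reads per 1000 miR-21-5p reads was 12.0, 12.4 and 9.68 on day 0, 20.1, 18.1 and 14.9 on day 1, and 20.3, 17.9 and 19.9 on day 2. Every library of days 1 and 2 was above the highest of day 0. It was 16.6, 13.5 and 14.5 on day 3 and 9.48, 11.05 and 11.4 on day 7. Day 3 still lay above day 0 in all libraries, and day 7 overlapped it. On day 14 it was 8.36, 7.82 and 9.09, and on day 28 it was 8.34, 9.38 and 8.65. All libraries of days 14 and 28 lay below the lowest of day 0.

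The ratio was tested with limma on the log2 ratio of 3p to 5p for all 150 precursors whose arms were both tested. A positive change means that the 3p arm gained more, or lost less, than the 5p arm. The miR-21 ratio rose by 0.63 on day 1 (SE 0.12, adjusted p = 0.00126) and by 0.77 on day 2 (SE 0.12, adjusted p = 0.000105) against day 0, when 20% and 16.7% of the 150 precursors were called. On day 3 it was higher by 0.38 (adjusted p = 0.0320, 19.3% called), on day 7 it differed by -0.10 (95% interval -0.35 to 0.15, adjusted p = 0.646, 6.67% called), and on day 14 it was lower by -0.43 (adjusted p = 0.0233, 8.67% called). On day 28 the difference was -0.37 (95% interval -0.62 to -0.11) with an unadjusted p of 0.00621 and an adjusted p of 0.206, and limma called 0 of the 150 precursors (0%) there, with 19 at an unadjusted p under 0.05. The unequal calls of the arms on day 28, 5p called and 3p not, are therefore not shown to differ. The day 3 and day 14 calls depended on single libraries. Day 3 was lost without day 0 replicate 3 or day 3 replicates 1 or 3 (adjusted p from 0.0584 to 0.166), and the value without day 0 replicate 3 was 0.27. Day 14 was lost without day 0 replicates 1 or 2 or day 14 replicates 1 or 2 (adjusted p from 0.0601 to 0.132).

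The fall of the ratio after day 2 did not rest on the day 0 libraries. Day 7 against day 2 gave -0.87 (SE 0.12, adjusted p = 2.80e-05, 4.67% of precursors called), as miR-21-3p fell by 0.89 while miR-21-5p changed by -0.02. Day 14 against day 2 gave -1.20 (adjusted p = 6.36e-08, 6% called) and day 28 against day 2 gave -1.13 (adjusted p = 1.97e-07, 18% called). Leaving out any 1 library of the days compared kept all 3 of these calls (adjusted p at most 0.000617). Day 2 had the highest mean ratio of all days in these same libraries, so differences from it lean toward a fall. Against day 1, the ratio was lower by 0.73 on day 7 (adjusted p = 0.000443, 5.33% called). It was lower by 1.06 on day 14 (adjusted p = 7.10e-07, 3.33% called) and by 1.00 on day 28 (adjusted p = 2.38e-06, 11.3% called). Of the steps between neighbouring times, day 7 against day 3 passed for the ratio (-0.48, adjusted p = 0.0214, 2.67% called), and it was lost without day 3 replicates 1 or 3, without day 7 replicates 1 or 2 (adjusted p from 0.0654 to 0.242) and with no filter (adjusted p = 0.0916). The step from day 1 to day 2 (0.14), that from day 2 to day 3 (-0.38, adjusted p = 0.214) and that from day 7 to day 14 (-0.33, adjusted p = 0.348) did not pass, with 0 precursors (0%) called by limma in each and 15, 7 and 13 at an unadjusted p under 0.05. Day 28 against day 14 gave 0.07 for the ratio (95% interval -0.19 to 0.32, adjusted p = 0.810, 0.667% called).

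**Figure D3:**
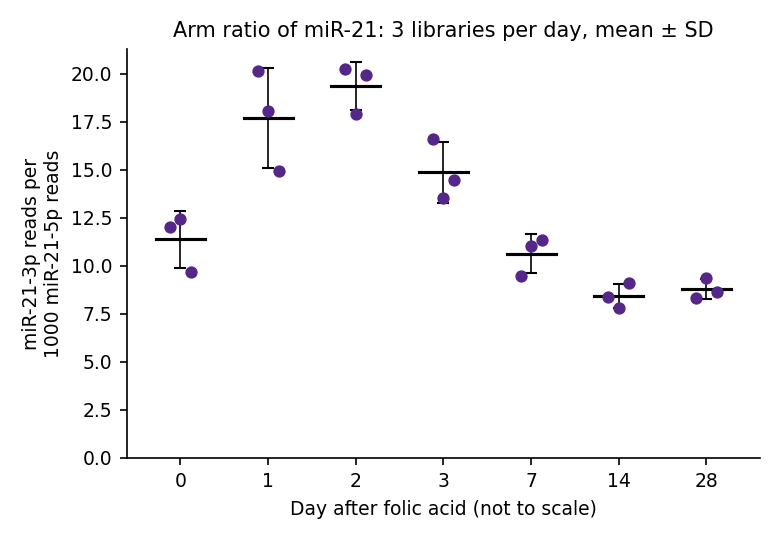
Reads of miR-21-3p per 1000 reads of miR-21-5p in each library by day, with a line for the mean and error bars for the SD of 3 libraries. The mean is 19.4 on day 2, against 11.4 on day 0, and it is 8.42 on day 14 and 8.79 on day 28.

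The decline was tested step by step. Against day 7, miR-21-5p was lower on day 14 by 0.81 on the log2 scale (adjusted p = 0.00528) and miR-21-3p fell by 1.14 (adjusted p = 0.00442), in a step where 4.41% of all miRNAs were called. Without day 14 replicate 3 the changes were -1.01 for miR-21-5p and -1.40 for miR-21-3p (adjusted p = 0.000175 and 0.000134). In a fit of those 2 days alone both calls were lost (adjusted p = 0.126 each). Against day 14, miR-21-5p fell by 0.94 on day 28 (adjusted p = 0.00114) and miR-21-3p fell by 0.88 (adjusted p = 0.00801), with 12.3% called. Without day 14 replicate 3 the change of miR-21-5p was -0.71 (adjusted p = 0.0115). The fall of miR-21-3p was lost without day 14 replicate 3 (-0.59, adjusted p = 0.0778), without day 28 replicate 2 (adjusted p = 0.0506) and in a fit of the 2 days alone (adjusted p = 0.0552). As a description of the return, the rise left on each day is given as a percent of the rise on day 2, the highest day of both arms, on the log2 scale. miR-21-5p had reached 84.3% of that rise by day 1, kept 98.4% on day 3 and 99.1% on day 7, and kept 65.4% on day 14 and 26.0% on day 28. miR-21-3p had reached 83.8% by day 1, kept 86.6% on day 3 and 71.9% on day 7, and kept 35.9% on day 14 and 8.10% on day 28, the last resting on the uncalled day 28 difference given above. On day 14 the single libraries ran from 51.0% to 83.1% for miR-21-5p and from 21.7% to 52.8% for miR-21-3p. In CPM without the log, 12.7% of the gain of miR-21-5p and 2.27% of that of miR-21-3p was left on day 28.

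In share of all reads assigned to miRNAs, miR-21-5p made up 1.40% ± 0.151 at day 0, and 5.97% ± 0.145 had been reached by day 1 (SD, n = 3 each). Its share was 8.37% ± 0.559 on day 2, then 8.10% ± 0.644 by day 3, and still 7.76% ± 0.580 by day 7. On day 14 it held 4.42% ± 1.58, with single libraries at 3.795%, 3.25% and 6.22%, and on day 28 it held 2.04% ± 0.307. By mean CPM it stood in place 4 of all miRNAs on days 2, 3 and 7 and in place 12 on day 28, against place 15 on day 0. On day 2 the miRNAs above it were miR-10a-5p, miR-22-3p and miR-10b-5p, at 133977, 104748 and 102763 CPM as deposited, against 83668 CPM for miR-21-5p. miR-21-3p held 0.162% ± 0.0129 on day 2, against 0.016% ± 0.00348 on day 0, and stood in place 48 on day 2 and place 115 on day 28, against place 117 on day 0. Since CPM is a share, the gain of both arms by day 2, 7.12 percentage points, by itself lowers the summed share of all other miRNAs by 7.22%, or -0.11 on the log2 scale. Counting error was small beside the spread between libraries: it was at most 0.474% of the value for miR-21-5p and at most 4.82% for miR-21-3p, while the SD between libraries of a day ran from 5.97% to 27.8% and from 5.04% to 35.5%. These are whole kidneys, so a change in level per cell and a change in the mix of cells cannot be told apart.

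The place of miR-21 among the other hairpins was read on day 2, where its ratio was farthest from that of day 0. On day 0 miR-21-5p reads outnumbered miR-21-3p reads by 83.3, 80.5 and 103 to 1, and 22 of the 150 precursors leaned still more to the 5p arm. The rise of the miR-21 ratio on day 2 was the ninth largest of the 150. The 3 called precursors with the largest rises of the 3p to 5p ratio were miR-125a (1.23), miR-26a (1.17) and miR-99b (1.06). None of their abundant 5p arms was called higher: miR-125a-5p stood at 3454 ± 326 CPM on day 2 and 4036 ± 1441 CPM on day 0, and miR-26a-5p fell to 25488 ± 1149 CPM, against 38176 ± 3731 CPM on day 0. The 3 with the largest falls were miR-27a (-1.47), miR-874 (-0.94) and miR-130a (-0.94). Some of the scarce arms named here were so low that the added 1 CPM weighs in their ratio. miR-130a-5p averaged 2.14 CPM on day 2 and 0.87 CPM on day 0, and miR-26a-3p averaged 6.59 and 4.04 CPM. In miR-27a the scarce 5p arm stood at 14.9 ± 2.65 CPM on day 2, against 4.92 ± 1.29 CPM on day 0, and the abundant 3p arm hardly differed at 1400.2 ± 46.5 and 1439 ± 173 CPM. miR-21 had both arms called higher and the ratio called higher as well. The ratio was called higher on day 2 in 16 of the 150 precursors (10.7%), and how many of these had both arms called higher was not counted.

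**Figure D4:**
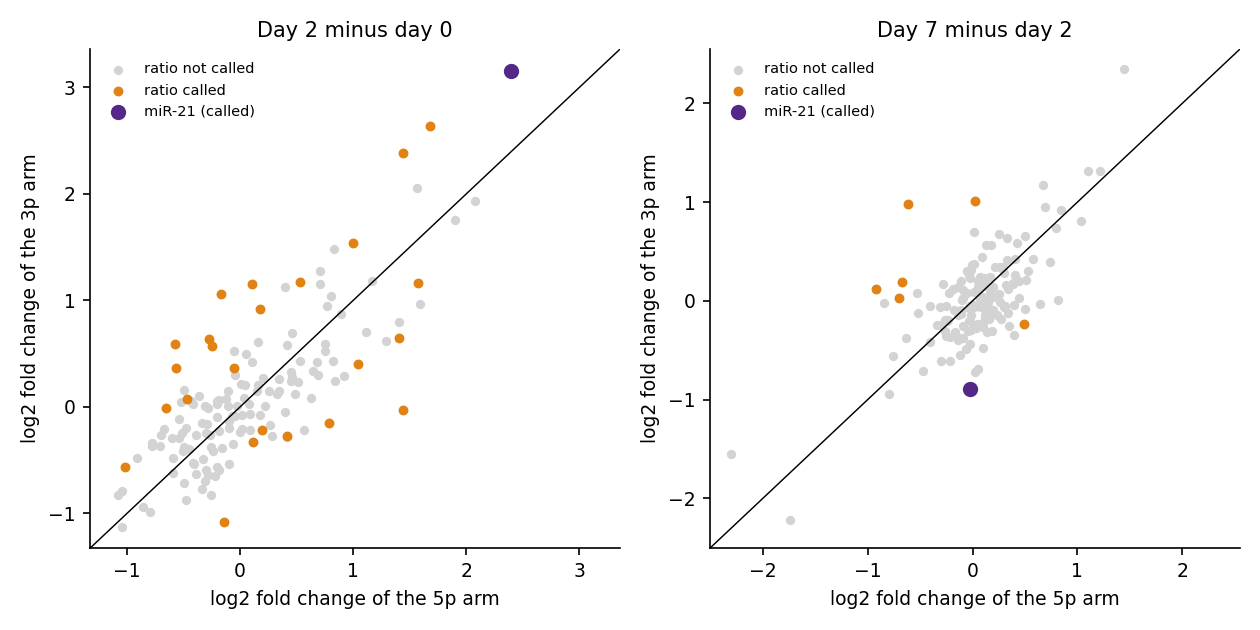
Change of the 3p arm against change of the 5p arm on the log2 scale for 150 precursors, on day 2 against day 0 (left) and day 7 against day 2 (right). Orange points are precursors whose ratio was called in limma, grey points those that were not, the purple point is miR-21 and the line marks equal change of the arms. miR-21 lies above the line on the left (3.16 against 2.39) and below it on the right (-0.89 against -0.02).

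The miRNAs with courses most like those of the arms were found by Pearson's r over the 7 day means among 292 other tested miRNAs that averaged 10 CPM or more, as a description with no test. The day means share libraries and depth, and the low day 0 and the high days 1 to 7 weigh heavily in them. For miR-21-5p they were miR-212-3p (r = 0.996), miR-17-5p (0.986), miR-19a-3p (0.981), miR-28-3p (0.979) and miR-532-5p (0.971). miR-212-3p, a miRNA induced by CREB in neurons, averaged 45.1 CPM on day 2 and 45.2 CPM on day 7, against 6.53 CPM on day 0, and stood at 13.0 CPM on day 28. miR-17-5p, from a cluster known from proliferating cells, averaged 219 CPM on day 2, against 105 CPM on day 0, a smaller change than that of miR-21-5p. The other arm came only in place 17 of the 292, with r = 0.949. For miR-21-3p the closest were miR-532-5p (0.986), miR-92a-5p (0.976), miR-17-5p (0.971), miR-92a-3p (0.968) and miR-99b-3p (0.968), with miR-21-5p in place 8. miR-92a-5p, itself the scarce arm of its hairpin, was highest on day 2 at 52.3 CPM and stood at 30.7 CPM on day 7 and 15.7 CPM on day 28, against 16.9 CPM on day 0. The leading mature sequences are shown for comparison of seeds with those of the miR-21 arms, which none of them shares.
miR-212-3p: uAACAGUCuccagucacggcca
miR-17-5p: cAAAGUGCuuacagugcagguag
miR-19a-3p: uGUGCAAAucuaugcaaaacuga
miR-92a-3p: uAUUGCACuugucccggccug

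**Figure D5:**
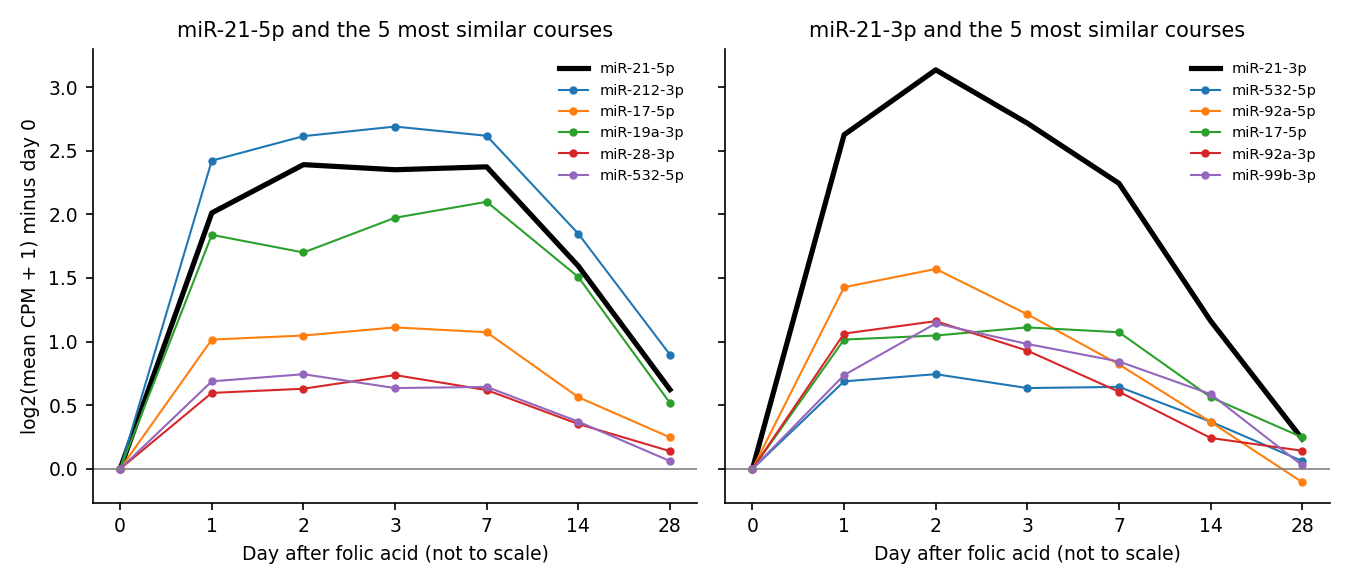
Course of miR-21-5p (left, black) and miR-21-3p (right, black) with the 5 most similar miRNAs each, as log2(mean CPM + 1) minus day 0 against the day. The left courses stay near their height from day 1 to day 7, as with miR-212-3p at 45.1 CPM on day 2 and 45.2 CPM on day 7. On the right miR-92a-5p falls to 30.7 CPM on day 7, against 52.3 CPM on day 2, but not all right courses fall so. miR-532-5p and miR-17-5p, shown in both panels, stand at 595 and 223 CPM on day 7, against 638 and 219 CPM on day 2.

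Other miRNAs of injury and of the signalling upstream of miR-21 were counted from lists. The lists were drawn up with earlier results of these data known, so their counts and medians only describe and are no independent support. Of 16 other miRNAs known from kidney injury and fibrosis, 10 rose and 3 fell on day 2, 10 rose and 3 fell on day 7, and 9 rose and 0 fell on day 28, all against day 0. The absence of falls on day 28 held only with TMM: under the other scalings 8 or 9 rose and 1 or 2 fell. Over all 431 miRNAs 24.4% were called higher and 19% lower on day 2, 29.7% and 22.7% on day 7, and 11.1% and 1.86% on day 28. With library totals in place of TMM, 75.3% of the calls on day 2 were rises, against 56.1% with TMM, and with upper-quartile scaling 45.1% were rises on day 7, against 56.6%, and 58% on day 28, against 85.7%. With totals that leave out both miR-21 arms, rises were 84.4%, 73.9% and 75.6% of the calls on these days. The list's median change was 0.70, 1.57 and 0.88, beside 0.02, 0.07 and 0.03 over all tested. The median of the list was thus highest on day 7 among these days, when miR-21-3p had already come down. Its most abundant member, miR-192-5p of the tubule, fell to 70293 ± 3221 CPM on day 2, against 120885 ± 10417 CPM on day 0, and the collagen-repressing miR-29c-3p fell to 549 ± 42.6 CPM, against 837 ± 139 CPM. miR-199a-3p, whose row holds the same values as that of miR-199b-3p in all 21 libraries so that the 2 are 1 measurement, stood at 2064 ± 111 CPM on day 2 and 1909 ± 239 CPM on day 0 and rose to 5119 ± 116 CPM on day 7. Of 10 miRNAs listed as induced by NF-kB, STAT3 or AP-1, 5 rose and 2 fell on day 2. On day 7, 4 rose and 0 fell (3 and 3 with upper-quartile scaling), and on day 28, 4 rose and 0 fell. The medians of this list were 0.32, 0.32 and 0.21. One of its rises on day 2 was miR-212-3p (2.64, adjusted p = 3.37e-08 in limma), described above as induced by CREB in neurons. It stands in the injury list as well. Among the 4 most abundant members of this list on day 0, only miR-221-3p was called higher on day 2. It rose to 1467 ± 67.2 CPM, against 962 ± 103 CPM on day 0. miR-181b-5p fell to 874 ± 91.5 CPM, against 1126 ± 81.0 CPM. On days 2 and 0, miR-125b-5p stood at 1004 ± 93.3 and 1285 ± 421 CPM and was not called. miR-222-3p, at 1161 ± 100.4 and 1142 ± 106 CPM, was not called either. A miRNA could stand in more than 1 list and was then counted in each, so the counts of these lists are not independent of one another.

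Markers of other cells moved over the same days, some of them shared with the injury list. Both arms of 1 hairpin were counted as separate markers for miR-142 and miR-223 (leukocyte) and for miR-199a and miR-214 (mesenchymal). The same holds for miR-144 (erythroid) and miR-126 (endothelial), and the injury list also holds both arms of miR-199a and miR-214. Such counts are therefore not of independent markers. The counts below stand beside shares over all 431 miRNAs of 24.4% called higher and 19% lower on day 2. Those shares were 29.7% and 22.7% on day 7, and 11.1% and 1.86% on day 28. Of 8 leukocyte miRNAs, 6 rose and 1 fell on day 2, 6 rose on day 7 and 6 rose on day 28 (4 with library totals), and none of the 8 was at 0. Their summed level, in CPM as deposited, ran from 1733 to 1841 CPM on day 2, from 2446 to 3525 CPM on day 7 and from 1756 to 1989 CPM on day 28, against 929 to 1196 CPM on day 0. Of 5 mesenchymal miRNAs 3 rose on day 2 and all 5 rose on days 7 and 28, with sums from 2455 to 2860 CPM on day 2, from 5717 to 6354 CPM on day 7 and from 3673 to 4719 CPM on day 28, against 1773 to 2378 CPM on day 0. Of the 5 tubule miRNAs 4 fell on day 2, 4 fell and 1 rose on day 7. On day 28 1 rose with TMM, while 0 rose and 1 fell under each of the other 4 scalings. Tubule sums ran from 130820 to 137789 CPM on day 2 and from 148805 to 165151 CPM on day 28, against 182616 to 195891 CPM on day 0. On day 28 the leukocyte and mesenchymal sums were thus above day 0 in all 3 libraries, as was miR-21-5p. For miR-21-3p, 2 of the 3 libraries lay above the highest of day 0, 1 of them only at 195.704 against 195.646 CPM. The arms are not shown to differ on that day. Of 4 erythroid miRNAs 3 rose on day 2 and none was called on days 7 and 28, with sums from 5398 to 10219 CPM on day 2, from 821 to 2260 CPM on day 7 and from 966 to 1914 CPM on day 28, against 1251 to 3227 CPM on day 0. Both endothelial markers, the 2 arms of the miR-126 hairpin, fell on days 2 and 7. Neither was called with totals that leave out both miR-21 arms, and they were not called on day 28. Neither of the 2 smooth muscle markers was called on these days with TMM, and 1 rose on days 2 and 7 with library totals. Day 14 replicate 3, the library with the highest miR-21 arms of its day, had 9510.0 CPM of mesenchymal miRNAs, against 5640 and 5109 CPM in the other day 14 libraries, and 112197 CPM of tubule miRNAs, against 130582 and 131883 CPM. Its leukocyte sum did not stand apart, at 2564 CPM against 2590 and 2223 CPM in the other day 14 libraries. The part of these cells in the miR-21 results was not tested.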

How the data were processed

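The 21 small RNA libraries are of kidney and used Illumina's TruSeq chemistry, per the labels' protocols. CASAVA 1.8 and build mm9 are named in the submitters' processing notes, while no source used here names the aligner, the counting tool or the miRNA annotation. The authors deposited 1 table of CPM, in which each library sums to the same total. Reads had been counted whole: 100% of the values were whole reads within 0.05 of a read, and totals ran from 2875675 to 7110546 with a median of 4494595. Intervals and counting errors cover counting error only. Of 1125 rows, 431 passed edgeR's filterByExpr (minimum count of 10) on these reads. CPM was scaled by TMM and tested with limma 3.58.1 (trend) on log2(CPM + 1), with a mean per day. A second limma fit used the log2 arm ratio of 150 precursors. A miRNA was called at an adjusted p under 0.05. edgeR 4.0.16 (quasi-likelihood) and DESeq2 1.42.0 on the whole reads were alternatives; they called 193 and 181 miRNAs on day 2 and 52 and 53 on day 28, against 187 and 56 in limma. The fits were also run on simulated data with the same spread setting for every miRNA and changes on day 7 only. These data differ from that, and no result here rests on it. Of the miRNAs named, 2 are the members; similar courses, precursors on day 2, the miRNAs above miR-21-5p in rank and up to 4 examples a list (the most abundant on day 0) were taken by rule. Members and lists were chosen with earlier results of these data known. Of the 6 tubule markers 5 were matched by name. Sequences are RefSeq's (GRCm38.p6), matched by name or synonym; those of miR-532-5p and miR-92a-5p were not matched. Folds were predicted with RNAfold 2.7.2.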

Additional observations from a re-analysis of the deposited data

How the results depend on the processing

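The alternatives were other scalings (library totals, RLE, upper quartile, totals without both arms), pseudocounts of 0.5 and 5, no filter, robust empirical Bayes, a replicate block, fits of the 2 days compared, edgeR, DESeq2 and leaving out each library. Every change of miR-21-5p and miR-21-3p against day 0 up to day 14 kept its direction and call in all of them. The ratio on days 1 and 2 did so in all but edgeR and DESeq2, which were not run on it. The median change of all miRNAs on day 2 was 0.20 with library totals and 0.29 with totals without both arms, beside 0.02 with TMM, and on day 7 it was -0.11 with upper quartile, beside 0.07. Counting the lists under the other scalings was chosen after seeing the data. In fits of 2 days alone, which leave fewer libraries to estimate the spread, calls were lost for the ratio on day 3 (0.38, adjusted p = 0.0832) and day 14 against day 0 (-0.43, adjusted p = 0.154), for day 14 against day 7 (5p -0.79, 3p -1.12) and for miR-21-3p on day 28 against day 14 (-0.89), and miR-21-3p on day 2 against day 1 passed (0.52, adjusted p = 0.0406). With no filter, calls were lost for miR-21-5p on day 28 (0.61) and the ratio on day 7 against day 3 (-0.48). The uncalled difference of miR-21-5p between days 7 and 3 (0.02) changed sign with library totals (-0.061), upper quartile (-0.067), totals without both arms (-0.067) and no filter (-0.0041), and that of miR-21-3p between days 3 and 1 (0.09) with upper quartile (-0.026); the cause was not tested.

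Leaving out 1 library gave ranges of 0.49 to 0.67 for miR-21-5p on day 28 against day 0, -0.16 to 0.056 on day 3 against day 2, -0.089 to 0.13 on day 7 against day 3 and -0.12 to 0.080 on day 7 against day 2. For miR-21-3p they were -1.11 to -0.59 on day 28 against day 14, -0.030 to 0.18 on day 3 against day 1, and 0.015 to 0.37 on day 28 against day 0. For the ratio they were 0.27 to 0.45 on day 3 and -0.54 to -0.36 on day 14 against day 0, and -0.55 to -0.40 on day 7 against day 3. Precursors called for the ratio on days 1, 2, 3, 7, 14 and 28 numbered 34, 40, 44, 39, 29 and 2 of 150 with a pseudocount of 5, against 30, 25, 29, 10, 13 and 0 of 150 as reported. With no filter they were 26, 38, 47, 40, 35 and 0 of 331, a smaller share on days 1, 2 and 3 (7.85%, 11.5% and 14.2%, against 20%, 16.7% and 19.3%) and a larger one on days 7 and 14 (12.1% and 10.6%, against 6.67% and 8.67%). Libraries with the same replicate number were not seen to deviate together (mean r = 0.00414, 15 of 63 pairs over 0.1, 6 of 21 libraries closest to their own number). Among pairs with different numbers, 28 of 126 were over 0.1. No pairing by number was seen, but with so few libraries a day a weak one is not excluded. The replicate block kept all calls of both arms and the ratio against day 0, with miR-21-5p on day 28 at 0.62 (adjusted p = 0.0128), and called 189 miRNAs on day 2, against 187.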
